A study of Mus musculus with 12 samples.

Results

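The cytosolic ribosomal protein genes are described here across sorted GFRα1+, NGN3+ and KIT+ spermatogonia, and in whole testes, of adult mice. The genes were taken by name: every array probe whose gene symbol is Rpl or Rps followed by a number, with an optional letter or paralog suffix, or is Rplp0, Rplp1, Rplp2 or Rpsa. This gave 171 probes of 55681 and 83 genes of 36315, of which 51 encode proteins of the large subunit or paralogs of them and 32 proteins of the small subunit or paralogs of them. Of the 83 genes, 76 are core genes and 7 are paralogs, taken here as genes whose sequence is closely related to that of a core gene. One of the 7, Rps4y2, is annotated in RefSeq as a transcribed pseudogene, Rps4l. The probe with the highest mean stood for its gene, and 53 genes had several probes. All 83 genes were measured well above background in the sorted cells. On the whole testis arrays this held for 82, and Rpl3l was above background on 0 of 3.

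The study set subsets of spermatogonia apart by the order in which they become able to respond to retinoic acid, and the arrays profiled 3 samples of each subset and of whole testes. All mice were C57BL/6, 10 to 11 weeks old. GFRα1+ cells were GFP+ cells of Gfra1-EGFP knock-in mice, 1 mouse per sample, NGN3+ cells were the GFP+/KIT- cells of Ngn3-EGFP transgenic mice, 2 mice pooled per sample, and KIT+ cells were the GFP+/KIT+ cells of Ngn3-EGFP mice, 1 mouse per sample. The GFP of the Ngn3-EGFP transgene outlasts Ngn3 expression, so the KIT- fraction can hold cells past the Ngn3 stage, and whole testes came from wild-type littermates of the Gfra1-EGFP mice.

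The cytosolic ribosome translates nuclear-encoded mRNAs. Its small subunit reads the mRNA and its large subunit joins amino acids, and most ribosomal proteins are present as a single copy per ribosome, so that core genes are made in step with each other. Their mRNAs are among the most abundant of growing cells. Many of them begin with an oligopyrimidine tract (5′TOP), a C followed by a run of pyrimidines, through which their translation follows mTORC1 signalling. The testis is known for paralogs of ribosomal proteins: in mouse, Rpl10l, an autosomal retrogene, stands in for X-linked Rpl10 when the X chromosome is silenced in meiosis, and Rpl39l is made in male germ cells beside X-linked Rpl39.

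Levels below are log2 processed signals minus the 75th percentile of the same array, so 0 is that percentile, and a ratio is a difference of group means (n = 3 each). Tests are limma's moderated tests with p-values adjusted by the Benjamini-Hochberg method over all genes tested, and a gene is called higher or lower at an adjusted p under 0.05. Between replicate arrays, correlations ran from 0.980 to 0.989. The sort markers followed the labels: Gfra1 had a mean level of 1.65 in the GFRα1+ fraction, -1.22 in NGN3+ and -3.38 in KIT+ cells, and Kit 1.5, 1.96 and 4.55. Markers of other cells moved with the groups: the summed linear signal of 10 spermatid genes, relative to the 75th percentile, was 26.6 to 60.6 in GFRα1+ cells, 1265 to 1530 in NGN3+ cells, 1519 to 1865 in KIT+ cells and 4687 to 5830 in whole testes, and that of 9 spermatocyte genes was 27.8 to 30.5, 98.7 to 164, 125 to 175 and 610.5 to 714. That of 9 Sertoli cell genes was 59.0 to 66.6, 37.1 to 50.1, 39.7 to 46.5 and 235 to 278 in the same order. For 5 peritubular myoid genes it was 0.65 to 0.83, 3.1 to 8.92, 1.73 to 2.37 and 17.2 to 22.2. For 5 Leydig cell genes it was 5.99 to 10.75, 2.21 to 3.46, 2.51 to 3.07 and 12.9 to 17.4. For 5 endothelial genes it was 7.4 to 13.35, 4.21 to 5.59, 3.65 to 4.17 and 9.1 to 10.8. The spermatid marker Acrv1 was not above background in GFRα1+ cells. The part of these markers in the results below was not tested. The arrays lay on 3 slides: slide 1 held GFRα1+ replicates 1 and 2 and whole testis replicate 1, slide 2 held GFRα1+ replicate 3 and all NGN3+ and KIT+ arrays, and slide 3 held whole testis replicates 2 and 3.

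The start of the transcript is where a 5′TOP lies, so RefSeq start sites of these genes (GRCm38.p6) were read for it. A start was counted where its first 5 bases, on the sense strand, were all C or T. Of the 83 genes, 62 had an entry in the promoter table used, with 74 starts. Such a start was listed for 16 of 56 core genes (28.6%) and 0 of 6 paralogs, and for 1426 of 27025 genes with a listed start (5.28%). Listed starts are often several bases away from the used one, so a gene without the run may still have a 5′TOP. The windows shown have 15 bases before the start and 15 from it, with the run of pyrimidines that spans the start in capitals. The first 5 show core genes of both subunits with long runs, and the other 6 the 4 paralogs that are plotted with their core genes below and 2 of those core genes, which are X-linked.
Rpl27a (chr7:109519180-109519209, plus strand): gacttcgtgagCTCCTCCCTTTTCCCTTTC
Rpl15 (chr14:18270972-18271001, minus strand): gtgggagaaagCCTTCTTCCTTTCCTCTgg
Rps6 (chr4:86857353-86857382, minus strand): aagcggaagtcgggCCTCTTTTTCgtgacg
Rplp2 (chr7:141447636-141447665, plus strand): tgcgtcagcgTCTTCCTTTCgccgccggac
Rpl35 (chr2:39005117-39005146, minus strand): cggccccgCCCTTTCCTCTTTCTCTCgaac
Rpl10 (chrX:74270801-74270830, plus strand): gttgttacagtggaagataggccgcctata
Rpl10l (chr12:66284387-66284416, minus strand): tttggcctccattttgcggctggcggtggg
Rpl39 (chrX:37085208-37085237, minus strand): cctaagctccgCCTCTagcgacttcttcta
Rpl39l (chr16:10170213-10170242, plus strand): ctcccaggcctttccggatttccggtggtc
Rpl22l1 (chr3:28805493-28805522, plus strand): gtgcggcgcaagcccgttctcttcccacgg
Rps27l (chr9:66946071-66946100, plus strand): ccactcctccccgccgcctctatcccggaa
The 16 core genes with such a start and the 40 without were compared by their medians only. The median log2 ratio with and without the run was -0.43 and -0.40 for NGN3+ over GFRα1+, -0.31 and -0.29 for KIT+ over NGN3+, and 1.53 and 1.65 for GFRα1+ over whole testes.

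Most ribosomal protein genes were brightest in GFRα1+ cells and dimmest in whole testes. The median level over the 83 genes was 7.93, 7.98 and 7.92 on the GFRα1+ arrays, 7.82, 7.53 and 7.38 on the NGN3+ arrays, 7.21, 7.56 and 7.33 on the KIT+ arrays, and 6.30, 6.33 and 6.26 on the whole testis arrays. The sorted arrays all lay above the whole testis arrays, and the GFRα1+ arrays above the others, while NGN3+ and KIT+ arrays overlapped. The 83 genes made up 7.44%, 7.48% and 7.47% of the summed signal of all genes in GFRα1+ cells, 7.56%, 7.12% and 6.77% in NGN3+ cells, 5.87%, 6.23% and 5.92% in KIT+ cells, and 3.41%, 3.27% and 3.32% in whole testes. By this share KIT+ arrays lay below all NGN3+ arrays, and NGN3+ arrays overlapped GFRα1+ arrays. The means of 65 of 83 genes fell in the order GFRα1+, NGN3+, KIT+ and whole testes. Whole testes had the highest mean for 4 genes (Rpl10l, Rpl39l, Rpl36 and Rpl41), KIT+ cells for Rps27l and Rpl3l, and NGN3+ cells for Rpl3.

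**Figure D1:**
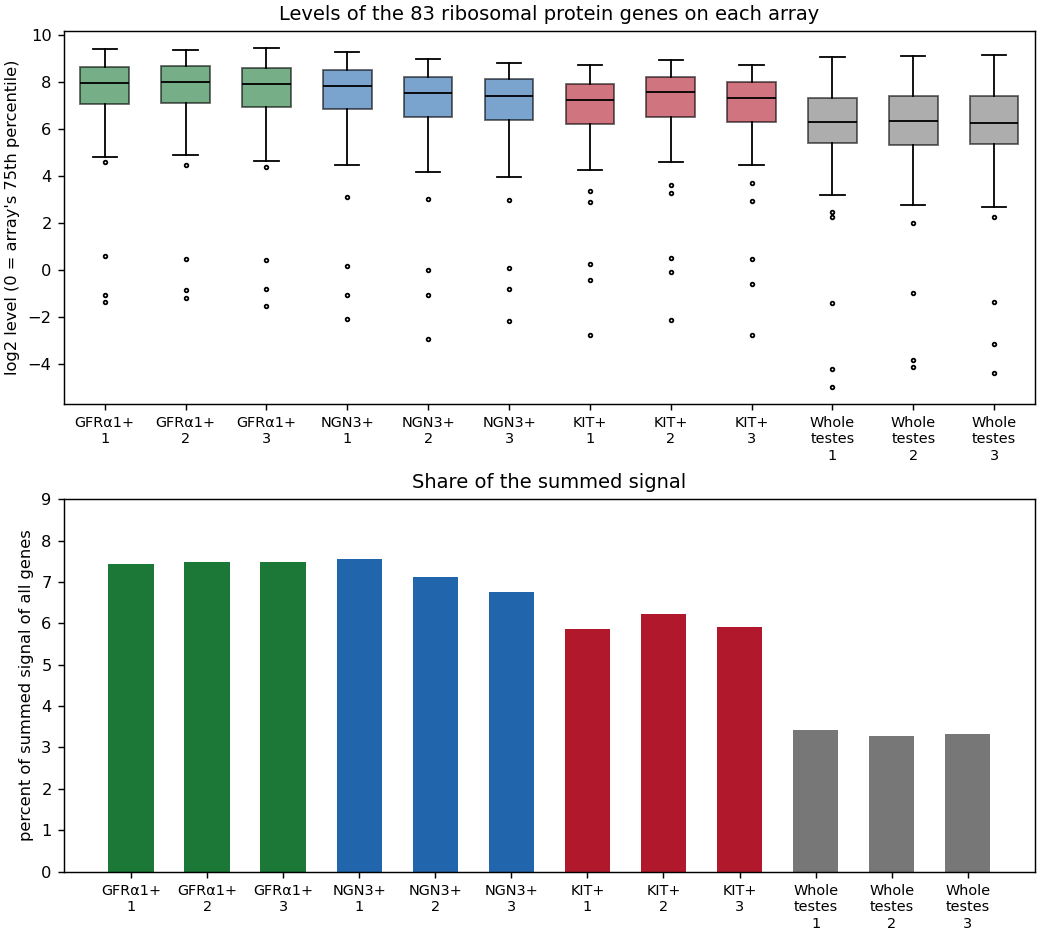
Top, log2 levels of the 83 ribosomal protein genes on each of the 12 arrays (0 is the array's 75th percentile; boxes hold the middle of the genes with the median as a line, whiskers reach to 1.5 box heights, circles are single genes). Bottom, the percent of the summed signal of all genes that these genes made up on each array, which was 7.44% to 7.48% in GFRα1+ cells and 3.27% to 3.41% in whole testes.

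Against whole testes, the great majority of ribosomal protein genes were higher in the sorted spermatogonia. In GFRα1+ cells 78 of 83 (94%) were called higher, against 49.9% of the 24186 genes tested, and 4 were called lower, against 37.5%. The median log2 ratio was 1.53, against 0.39 over all genes tested, and 62 of the 83 exceeded 1, as 39.95% of all genes tested did. All 3 GFRα1+ arrays lay above all 3 whole testis arrays for 79 of the genes (95.2%, against 49.8%). In NGN3+ cells 70 were called higher (84.3%, against 44.1% of 25345 genes) and 4 lower (4.82%, against 39.6%), with a median of 1.09 against 0.13, and the arrays did not overlap for 72 higher (86.7%, against 45.5%) and 5 lower genes (6.02%, against 41.0%). In KIT+ cells 60 were called higher (72.3%, against 43.3% of 24697 genes) and 7 lower (8.43%, against 41.6%), with a median of 0.73 against 0.05, and the arrays did not overlap for 64 higher (77.1%, against 44.9%) and 8 lower genes (9.64%, against 42.9%). The 3 comparisons share the whole testis arrays. No NGN3+ or KIT+ array lay on a slide with a whole testis array, and the versions of the extraction software differed likewise. For NGN3+ and KIT+ cells, the difference from whole testes therefore cannot be told apart from one of slide or software version. A fit with the slide as a block links them only through the GFRα1+ arrays, which lay on slides 1 and 2. A ratio to a whole organ cannot tell fewer cells of a type from less RNA per cell.

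The size of the difference varied widely between genes. Rpl36a, an X-linked gene for a protein beside the exit site of the large subunit, read 5.66, 5.78 and 5.72 in GFRα1+ cells, 5.83, 5.64 and 5.42 in NGN3+ cells and 5.09, 5.44 and 5.21 in KIT+ cells, against 2.25, 1.98 and 2.25 in whole testes. Its 3 whole testis values lay far below all 9 sorted ones, and it was 11.8-fold, 11.1-fold and 8.51-fold higher (log2 ratio 3.56 ± 0.14 (SE), adjusted p = 6.2e-10 by limma in GFRα1+ cells). The size rested on the probe: another probe of Rpl36a gave log2 ratios of 1.92, 1.36 and 1.34. Rpl10a, which forms the L1 stalk where spent tRNA leaves, read 8.67, 8.78 and 8.61 in GFRα1+ cells, 8.64, 8.31 and 8.14 in NGN3+ cells and 7.73, 8.01 and 7.72 in KIT+ cells, against 5.25, 5.18 and 5.42 in whole testes. It too separated all sorted from all whole testis arrays, and was 10.6-fold, 8.48-fold and 5.8-fold higher. Rpl14, of the large subunit, was 9.60-fold, 6.99-fold and 5.79-fold higher, and Rpl5, a partner of 5S ribosomal RNA, 7.79-fold, 5.0-fold and 3.03-fold higher. In the small subunit, Rps27a, made as a fusion with ubiquitin, was 6.8-fold, 4.96-fold and 3.67-fold higher by its brightest probe. The direction rested on the probe, since probes of Rps27a were called both ways in each of these comparisons.

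A few core genes did not share in this. Rpl36, of the large subunit, read 7.79, 7.81 and 7.92 in GFRα1+ cells, 7.90, 7.72 and 7.57 in NGN3+ cells and 7.55, 7.77 and 7.63 in KIT+ cells, against 8.04, 8.15 and 8.20 in whole testes. Rpl41, the smallest ribosomal protein, which bridges the subunits, read 8.56, 8.51 and 8.54 in GFRα1+ cells, 8.45, 8.22 and 8.13 in NGN3+ cells and 8.19, 8.36 and 8.20 in KIT+ cells, against 8.71, 8.87 and 8.87 in whole testes. For both genes the whole testis arrays were the highest, with no overlap. The differences were small: the log2 ratio of GFRα1+ cells over whole testes was -0.29 ± 0.11 (SE) for Rpl36 (adjusted p = 0.031 by limma) and -0.28 ± 0.11 for Rpl41 (adjusted p = 0.031), and neither was called when GFRα1+ replicate 1 or 2 or whole testis replicate 2 or 3 was left out, or within slide 1 (ratios -0.24 and -0.18, adjusted p = 0.14 and 0.24). In NGN3+ cells the ratios were -0.40 for Rpl36 (adjusted p = 0.0068) and -0.55 for Rpl41 (adjusted p = 0.00071), and with the slide as a block, at ratios of -0.43 and -0.45, neither was called (adjusted p = 0.12 and 0.11). Rps20, of the small subunit, read 8.30, 8.44 and 8.27 in KIT+ cells, against 9.05, 9.11 and 9.13 in whole testes, and fell by 0.76 on the log2 scale (adjusted p = 0.00014 by limma). In GFRα1+ cells it read 9.18, 9.28 and 9.21 and was not called.

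**Figure D2:**
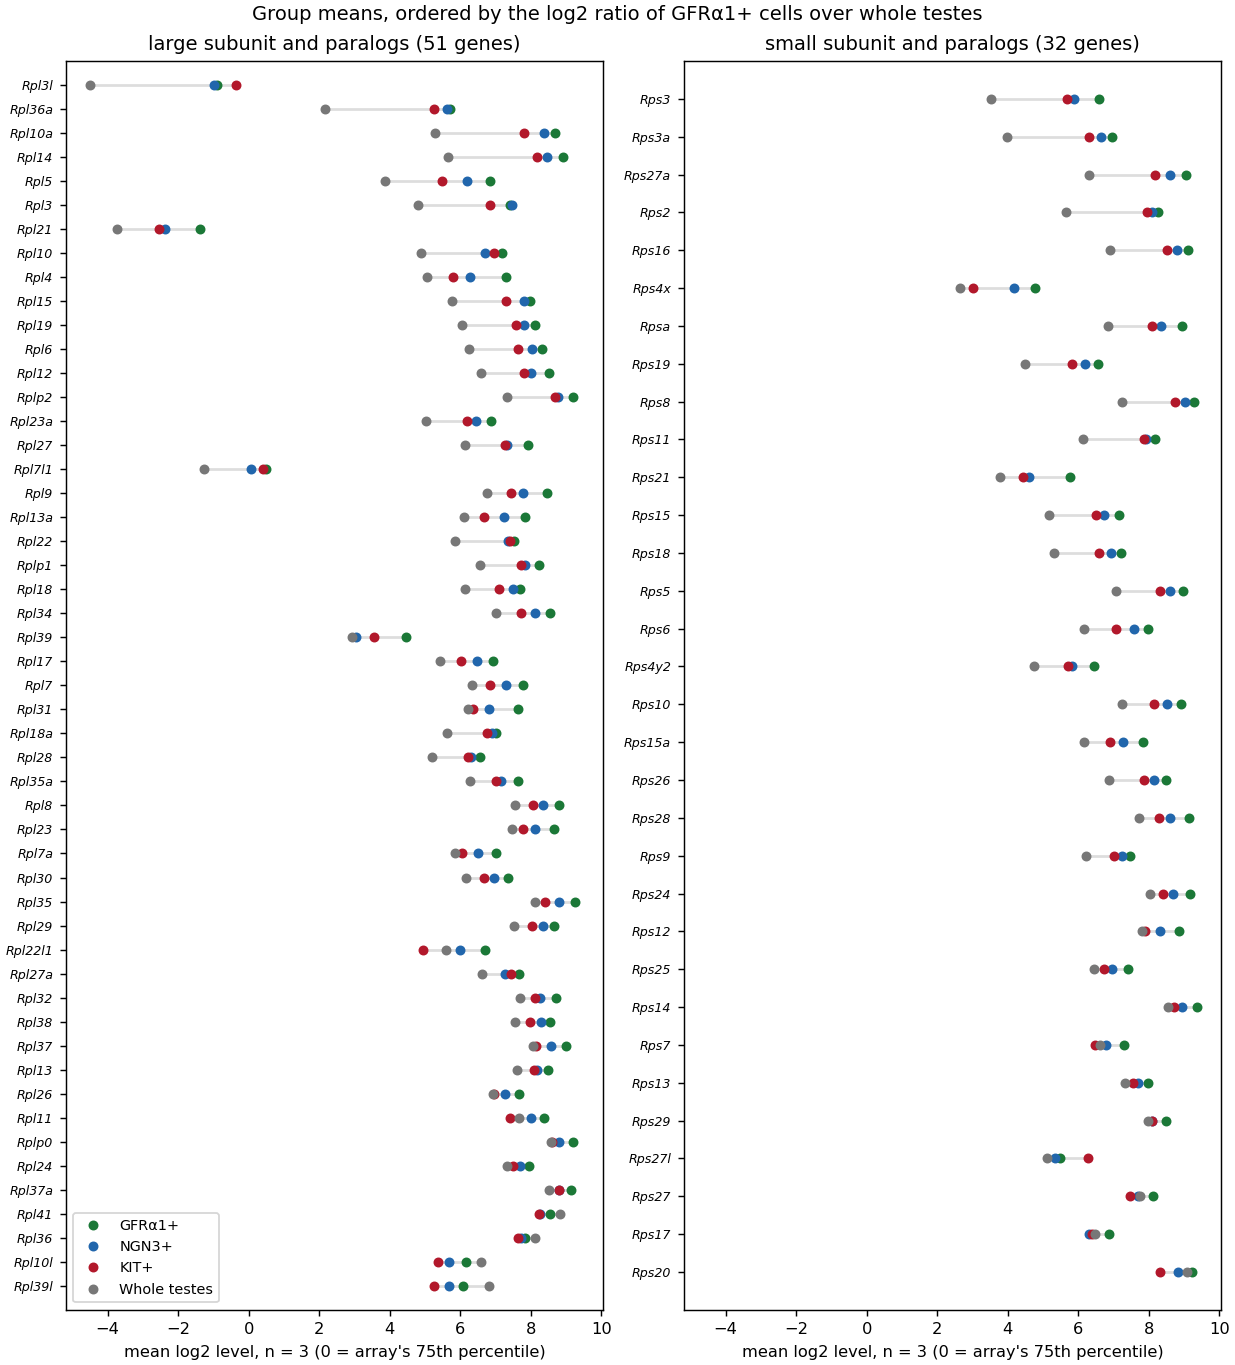
Mean log2 level (n = 3 arrays, 0 is the array's 75th percentile) of each of the 83 genes in GFRα1+ cells, NGN3+ cells, KIT+ cells and whole testes, with 51 large subunit genes on the left and 32 small subunit genes on the right, ordered by the log2 ratio of GFRα1+ cells over whole testes. Points are to be compared within a row only, since probes differ in brightness; whole testes lie furthest left in most rows and furthest right for Rpl41, Rpl36, Rpl10l and Rpl39l.

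Between the sorted fractions, ribosomal protein genes were lower in NGN3+ than in GFRα1+ cells under the scaling by percentile. No gene was called higher (20.0% of 23796 genes tested were) and 55 of 83 (66.3%) were called lower, against 36.4%. The NGN3+ arrays lay wholly below the GFRα1+ arrays for 65 genes (78.3%), against 41.0% of all genes tested. The median log2 ratio was -0.41, against -0.19 over all genes tested, and 73 of the 83 lay below that all-gene median. The falls were small: the ratios ran from -1.44 to 0.06 and 4 were below -1. The count of genes called varied with the scaling, with the treatment of slides and with single arrays. Quantile normalization gave 8 lower and 6 higher, against 31.5% and 20.73% of all genes tested. The median was then 0.0087, which is 0.13 above that of all genes. Scaling each array to its spiked-in control RNA added 1.83 to every log2 ratio. It gave 0 lower and 82 higher, against 0.58% and 95.32% of all genes tested, and the median relative to all genes stayed at -0.22. With the slide as a block 5 were called lower, against 23.6% of all genes tested. The median log2 ratio was then -0.38, and relative to all genes it went from -0.22 to -0.14. Within slide 2 the median was also -0.38, and -0.13 relative to all genes. There 1 GFRα1+ array stood against 3 NGN3+ arrays and was assumed to vary as the other groups do. Without NGN3+ replicate 2 or 3 the count was 20 or 21, without GFRα1+ replicate 1 or 2 it was 29 or 31, and without NGN3+ replicate 1, the NGN3+ array with the highest median level, it was 70. Of all genes tested, 25.66%, 29.13%, 29.85%, 30.47% and 36.24% were lower there, in the same order.

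The 4 largest falls were Rpl39, Rps21, Rpl4 and Rpl21. Rpl39, which lines the tunnel through which the new protein leaves the large subunit, read 3.1, 3.02 and 2.98 in NGN3+ cells, against 4.58, 4.45 and 4.37 in GFRα1+ cells. The groups lay over 1 log2 unit apart at their nearest arrays, a 2.71-fold fall (log2 ratio -1.44 ± 0.12 (SE), adjusted p = 2.0e-05 by limma). The call was kept in all 20 alternatives in which single genes were tested. Scaling to spiked-in RNA was not among them, and adding its 1.83 turns the ratio of Rpl39 positive. Rps21, of the small subunit, read 4.69, 4.6 and 4.56 in NGN3+ cells, against 6.14, 6.16 and 5.02 in GFRα1+ cells. Rpl4, whose long loop reaches into the exit tunnel, read 6.49, 6.15 and 6.20 in NGN3+ cells, against 7.61, 7.59 and 6.73 in GFRα1+ cells. For both, GFRα1+ replicate 3, the GFRα1+ array that shared a slide with the NGN3+ arrays, lay much closer to the NGN3+ values than the other GFRα1+ arrays did. Rps21 was 2.23-fold lower (adjusted p = 0.0078) and Rpl4 2.04-fold lower (adjusted p = 0.0056) by limma, and with the slide as a block their log2 ratios were -0.40 and -0.46 (adjusted p = 0.076 and 0.082). Rpl21, of the large subunit, was dim, at -2.07, -2.92 and -2.18 in NGN3+ cells, against -1.36, -1.21 and -1.54 in GFRα1+ cells, and its 2.03-fold fall (adjusted p = 0.0093) was not called with the slide as a block (log2 ratio -0.85 against -1.02, adjusted p = 0.10).

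**Figure D3:**
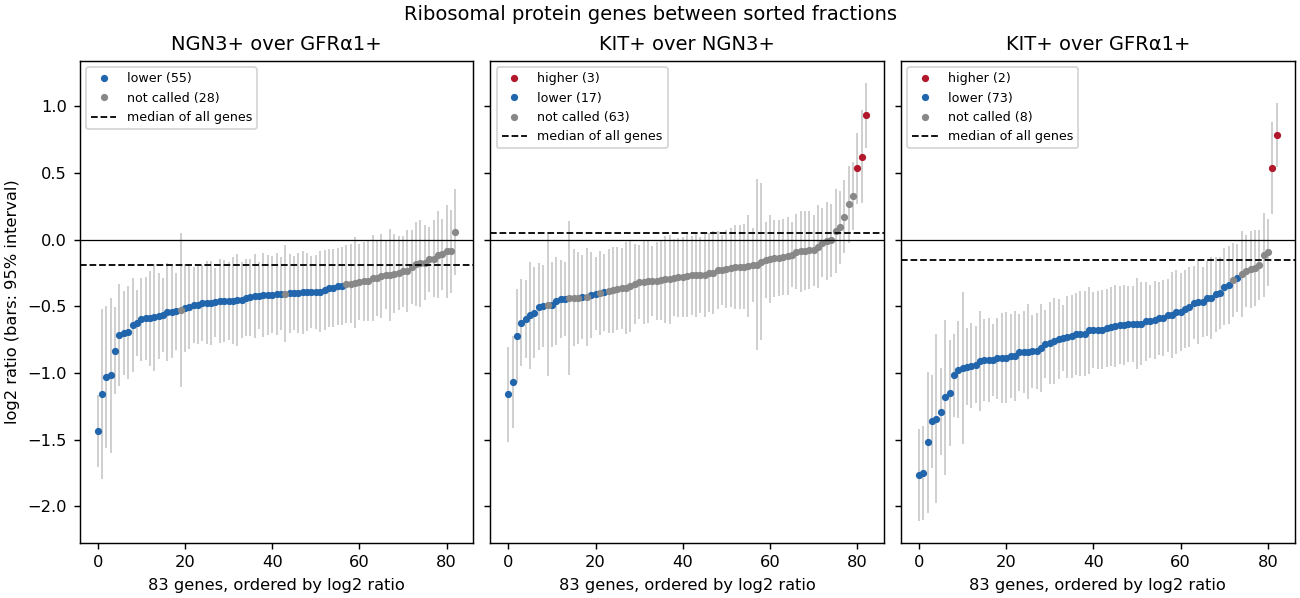
Log2 ratios of the 83 ribosomal protein genes, each panel ordered by its own ratios, for NGN3+ over GFRα1+, KIT+ over NGN3+ and KIT+ over GFRα1+ cells; bars are 95% confidence intervals from limma, colours mark genes past an adjusted p of 0.05 and the dashed line is the median of all genes tested. The medians of the 83 genes were -0.41, -0.27 and -0.68.

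**Figure D4:**
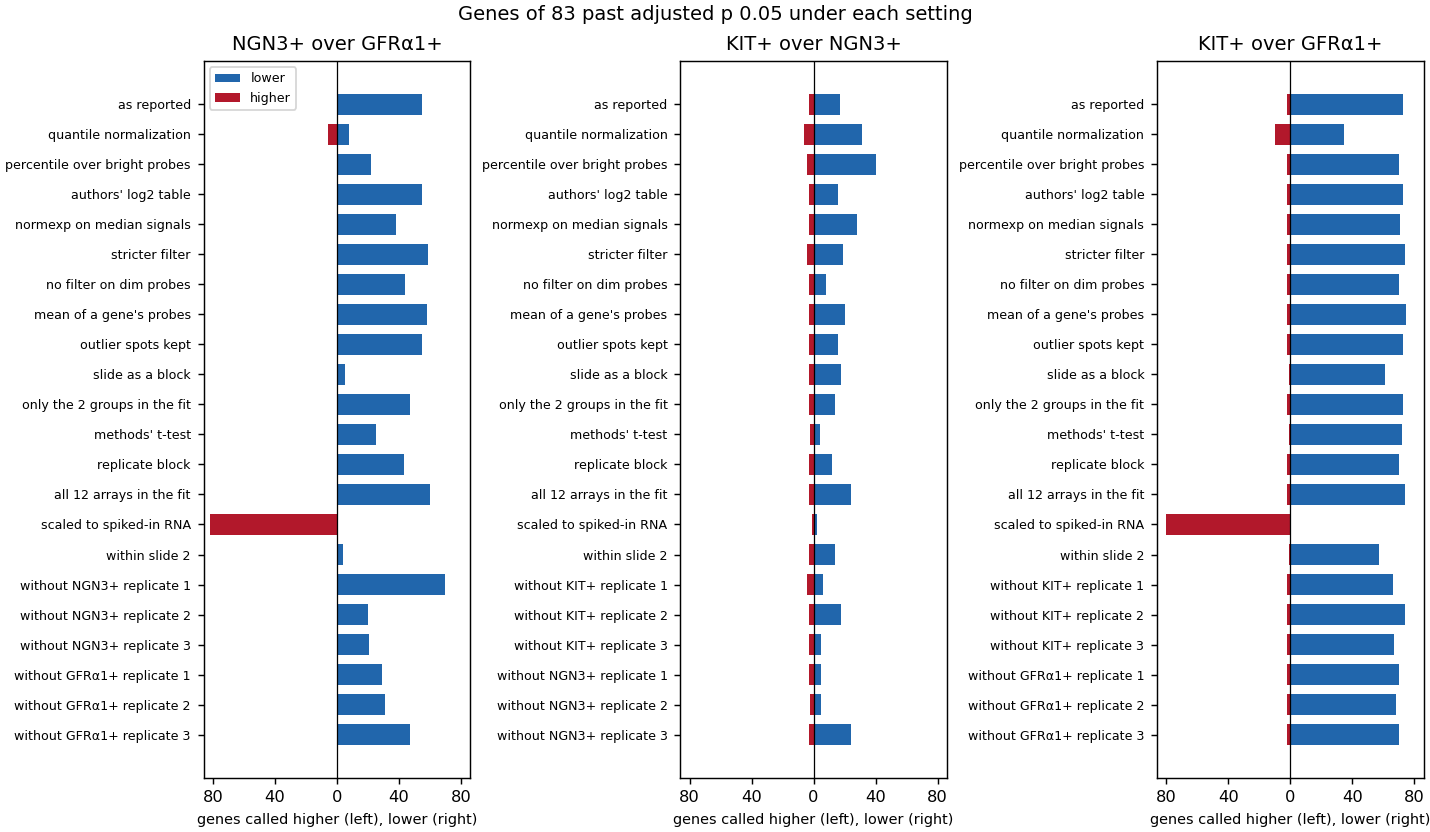
Number of the 83 genes called lower (bars to the right) or higher (bars to the left) at an adjusted p under 0.05 under each setting, for the 3 comparisons between sorted fractions. For NGN3+ over GFRα1+ the number called lower was 55 as reported, 5 with the slide as a block and 0 when scaled to spiked-in RNA. Of all genes tested, 36.4%, 23.6% and 0.58% were lower. For KIT+ over GFRα1+ it was 73, 61 and 0, against 39.5%, 32.12% and 2.35% of all genes tested.

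Between KIT+ and NGN3+ cells, 63 of the 83 ribosomal protein genes were not called under the scaling by percentile. Of the 83, 17 (20.5%) were called lower, near the 17.0% of 24115 genes tested, and 3 (3.61%) were called higher, against 17.5%. The KIT+ arrays lay wholly below the NGN3+ arrays for 30 genes (36.1%), against 24.3%. The median log2 ratio was -0.27, against 0.05 over all genes tested, and 75 of the 83 lay below the all-gene median. The number called lower was 5 or 6 without KIT+ replicate 1 or 3 or NGN3+ replicate 1 or 2, against 12.93% to 14.37% of all genes tested. It was 31 under quantile normalization (19.41% of all genes) and 40 when the percentile was taken over bright probes (20.31%). All NGN3+ and KIT+ arrays lay on slide 2.

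The largest falls in KIT+ cells were Rps4x and Rpl22l1. Rps4x, the X-linked gene of a small subunit protein, read 2.90, 3.25 and 2.93 in KIT+ cells, against 4.44, 4.16 and 3.96 in NGN3+ cells, which did not overlap (2.24-fold lower, adjusted p = 0.00071 by limma). The probe that stands for it is placed on chromosome 3 in the file, not on X, so that Rps4x and a copy of it cannot be told apart. Rpl5 read 5.42, 5.63 and 5.37 in KIT+ cells, against 6.41, 6.17 and 6.02 in NGN3+ cells (1.65-fold lower, adjusted p = 0.0068). Rpl3, which lies near the peptidyl transferase centre, read 6.75, 6.98 and 6.79 in KIT+ cells, against 7.72, 7.43 and 7.25 in NGN3+ cells, again without overlap (1.54-fold lower, adjusted p = 0.0093). The 3 genes called higher were Rps27l, Rpl3l and Rpl39. Rpl39 read 3.37, 3.62 and 3.71 in KIT+ cells, all above its NGN3+ values and all below its GFRα1+ values (1.45-fold higher over NGN3+ cells, adjusted p = 0.0081). Calls for Rps27l, Rpl39, Rps4x, Rpl22l1 and Rpl5 were kept in all 20 alternatives in which single genes were tested. Scaling to spiked-in RNA was not among them, and with it 1 of the 83 genes was called higher and 2 lower (7.67% and 8.06% of all genes tested).

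Over both steps, KIT+ cells had lower levels than GFRα1+ cells of nearly all ribosomal protein genes. Of the 83, 73 (88%) were called lower, against 39.5% of 23006 genes tested, and 2 (2.41%), Rps27l and Rpl3l, were called higher, against 26.6%. Of these, Rpl3l was not called with the slide as a block (log2 ratio 0.45 against 0.54, adjusted p = 0.12). The KIT+ arrays lay wholly below the GFRα1+ arrays for 77 genes (92.8%), against 41.8%. The median log2 ratio was -0.68, against -0.16, and 9 genes were below -1. The largest falls were Rpl22l1 (3.40-fold), Rps4x (3.37-fold), Rpl4 (2.87-fold) and Rpl5 (2.57-fold). The number called lower was 61 with the slide as a block (32.12% of all genes tested) and 66 to 74 with any 1 array left out (34.18% to 38.9%). It was 35 under quantile normalization (37.39%). It was 0 when scaled to spiked-in RNA, which added 1.94 to every log2 ratio and made 90.12% of all genes tested higher. The comparison shares its arrays with the 2 comparisons above.

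Of the paralogs, Rpl10l and Rpl39l ran opposite to the core genes against whole testes. Rpl10l read 6.25, 6.14 and 6.11 in GFRα1+ cells, 5.82, 5.62 and 5.63 in NGN3+ cells and 5.49, 5.44 and 5.22 in KIT+ cells, against 6.58, 6.63 and 6.53 in whole testes. Whole testes were the highest and each sorted fraction lay wholly below the one before it. Relative to whole testes it was 1.33-fold lower in GFRα1+ cells (adjusted p = 0.0035), 1.85-fold lower in NGN3+ (adjusted p = 1.4e-05) and 2.29-fold lower in KIT+ cells (adjusted p = 9.9e-07) by limma, and the first of these was not called within slide 1 (log2 ratio -0.38 against -0.41, adjusted p = 0.083). Its core gene Rpl10, which completes the large subunit late in assembly, read 7.15, 7.19 and 7.19 in GFRα1+ cells, 6.92, 6.57 and 6.62 in NGN3+ cells and 6.83, 7.13 and 6.94 in KIT+ cells, against 5.08, 4.76 and 4.81 in whole testes, and was 4.91-fold, 3.53-fold and 4.24-fold higher in the sorted fractions. Rpl39l read 6.09, 6.08 and 6.09 in GFRα1+ cells, 5.91, 5.66 and 5.52 in NGN3+ cells and 5.28, 5.34 and 5.13 in KIT+ cells, against 6.70, 6.94 and 6.78 in whole testes. It followed the same order without overlap, and was 1.65-fold, 2.16-fold and 2.94-fold lower than in whole testes (adjusted p = 0.00015, 5.3e-06 and 3.0e-07). Both paralogs were lower in NGN3+ than in GFRα1+ cells (adjusted p = 0.0076 for Rpl10l and 0.023 for Rpl39l by limma). Neither was called in that comparison with the slide as a block, where the log2 ratios were still -0.41 and -0.39 (adjusted p = 0.079 and 0.11), or under quantile normalization (0.41 and 0.77), and Rpl39l was not called without NGN3+ replicate 2 or 3 or GFRα1+ replicate 1 or 2 (adjusted p between 0.056 and 0.078). Scaling to spiked-in RNA adds 1.51 to each log2 ratio of NGN3+ cells over whole testes and 1.63 to each of KIT+ cells, which turns those 4 ratios positive (only barely for Rpl39l in KIT+ cells), and takes 0.31 from each of GFRα1+ cells.

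The difference between a paralog and its core gene on the same array does not depend on a scaling that shifts the whole array. How it changed between sorted cells and whole testes was tested, with p adjusted over the 7 pairs. The test pools the 9 sorted arrays, 3 of each fraction, although the fractions can differ. Its p is therefore not that of 9 replicates of 1 cell population. Rpl10l minus Rpl10 was -1.72 to -0.90 on the 9 sorted arrays, against 1.5 to 1.87 on the 3 whole testis arrays, a change of -2.90 on the log2 scale (two-sided exact permutation p = 0.0045, the smallest possible for 9 arrays against 3, adjusted p = 0.016). Rpl39l minus Rpl39 changed by -1.88 (exact permutation p = 0.0045, adjusted p = 0.016), with group means of 1.62, 2.66 and 1.68 in GFRα1+, NGN3+ and KIT+ cells, against 3.86 in whole testes. Rpl22l1 minus Rpl22 changed by -1.30 (adjusted p = 0.024 by the exact permutation test), and the sorted means differed among themselves, at -0.84, -1.35 and -2.49. Rpl7l1 minus Rpl7 changed by 0.60 (adjusted p = 0.032 by the exact permutation test). Its means were -7.29, -7.22 and -6.45 in GFRα1+, NGN3+ and KIT+ cells, against -7.59 in whole testes. No value is given for Rpl3l and Rpl3, since Rpl3l was not well above background on the whole testis arrays. For Rps27l and Rps27 (0.58, adjusted p = 0.23) and for Rps4y2 and Rps4x (-0.09, adjusted p = 0.79) the test did not pass. The pooled test does not address KIT+ cells alone, whose means differed from those of the other fractions. Rps27l minus Rps27 was -2.64, -2.35 and -1.19 in GFRα1+, NGN3+ and KIT+ cells, against -2.64 in whole testes. Rps4y2 minus Rps4x was 1.68, 1.645 and 2.69 in the same order, against 2.10 in whole testes. Rps4y2, as Rps4l, lies on chromosome 6 in RefSeq.

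Among the sorted fractions the paralogs went different ways. Rpl22l1, a paralog of Rpl22, which lies near the exit of the tunnel, read 6.60, 6.73 and 6.76 in GFRα1+ cells, 6.30, 6.00 and 5.71 in NGN3+ cells and 5.0, 4.98 and 4.82 in KIT+ cells. The 3 fractions did not overlap, with a 2.10-fold fall in KIT+ against NGN3+ cells (adjusted p = 0.00093 by limma) and 1.62-fold in NGN3+ against GFRα1+ cells (adjusted p = 0.0048). Under quantile normalization the second fall of Rpl22l1 was not called (log2 ratio -0.31, adjusted p = 0.055 by limma). Against whole testes, which read 5.39, 5.72 and 5.66, it was 2.15-fold higher in GFRα1+ cells (adjusted p = 3.2e-05) and 1.58-fold lower in KIT+ cells (adjusted p = 0.0020), the second of which was not called with the slide as a block (log2 ratio -0.55 against -0.66, adjusted p = 0.14). Rpl22 itself read 7.50, 7.54 and 7.58 in GFRα1+ cells, 7.55, 7.23 and 7.29 in NGN3+ cells and 7.21, 7.66 and 7.39 in KIT+ cells, which overlapped, and it was not called in any comparison of sorted fractions. The 95% confidence interval of its log2 ratio was -0.43 to 0.20 for KIT+ over GFRα1+ cells.
Rps27l, a p53-inducible paralog of Rps27, was the member with the largest rise in KIT+ cells. It read 5.59, 5.45 and 5.44 in GFRα1+ cells, 5.34, 5.31 and 5.39 in NGN3+ cells and 6.16, 6.44 and 6.23 in KIT+ cells, against 5.10, 5.19 and 5.05 in whole testes. KIT+ arrays lay above all others, 1.91-fold over NGN3+ cells (adjusted p = 0.00031) and 1.72-fold over GFRα1+ cells (adjusted p = 0.00021) and 2.24-fold over whole testes (adjusted p = 8.9e-07) by limma. Rps27 read 7.35, 7.62 and 7.45 in KIT+ cells, against 8.12, 8.11 and 8.17 in GFRα1+ cells, and fell 1.58-fold (adjusted p = 0.0017).
Rpl3l, known from striated muscle, was dim, at -1.06, -0.83 and -0.81 in GFRα1+ cells, -1.06, -1.08 and -0.83 in NGN3+ cells and -0.43, -0.08 and -0.59 in KIT+ cells. KIT+ arrays were the highest, 1.54-fold over NGN3+ cells (adjusted p = 0.013), and the call was lost without NGN3+ replicate 2 (adjusted p = 0.055). On the whole testis arrays it did not rise well above background, so the size of its ratios to them is uncertain. Under the scaling by percentile it was 12.1-fold higher in GFRα1+ cells, 11.4-fold in NGN3+ cells and 17.5-fold in KIT+ cells. For each whole testis array this used the value of the Rpl3l probe or the lowest value reached by a probe well above background, whichever was higher. Across the alternatives in which single genes were tested, its log2 ratios were as low as 1.705, 1.468 and 1.992.
Rpl7l1, a paralog of Rpl7, read 0.61, 0.48 and 0.41 in GFRα1+ cells, 0.15, -0.01 and 0.09 in NGN3+ cells and 0.25, 0.51 and 0.45 in KIT+ cells, against -1.41, -1.0 and -1.38 in whole testes. NGN3+ arrays were the lowest of the sorted ones, 1.34-fold below GFRα1+ cells (adjusted p = 0.011 by limma), a call that was lost with the slide as a block (log2 ratio -0.33, adjusted p = 0.12) and without NGN3+ replicate 2 (adjusted p = 0.051). Rpl7 was 1.96-fold higher in NGN3+ cells and 1.44-fold higher in KIT+ cells than in whole testes, and KIT+ cells were below GFRα1+ cells by 0.94 on the log2 scale (adjusted p = 0.00021). Rps4y2 read 5.97, 5.77 and 5.76 in NGN3+ cells, against 6.42, 6.50 and 6.46 in GFRα1+ cells, with no overlap. It was 1.54-fold lower (adjusted p = 0.0015), and beside Rpl39 was the other gene tested singly whose call in that comparison was kept in all 20 alternatives.

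**Figure D5:**
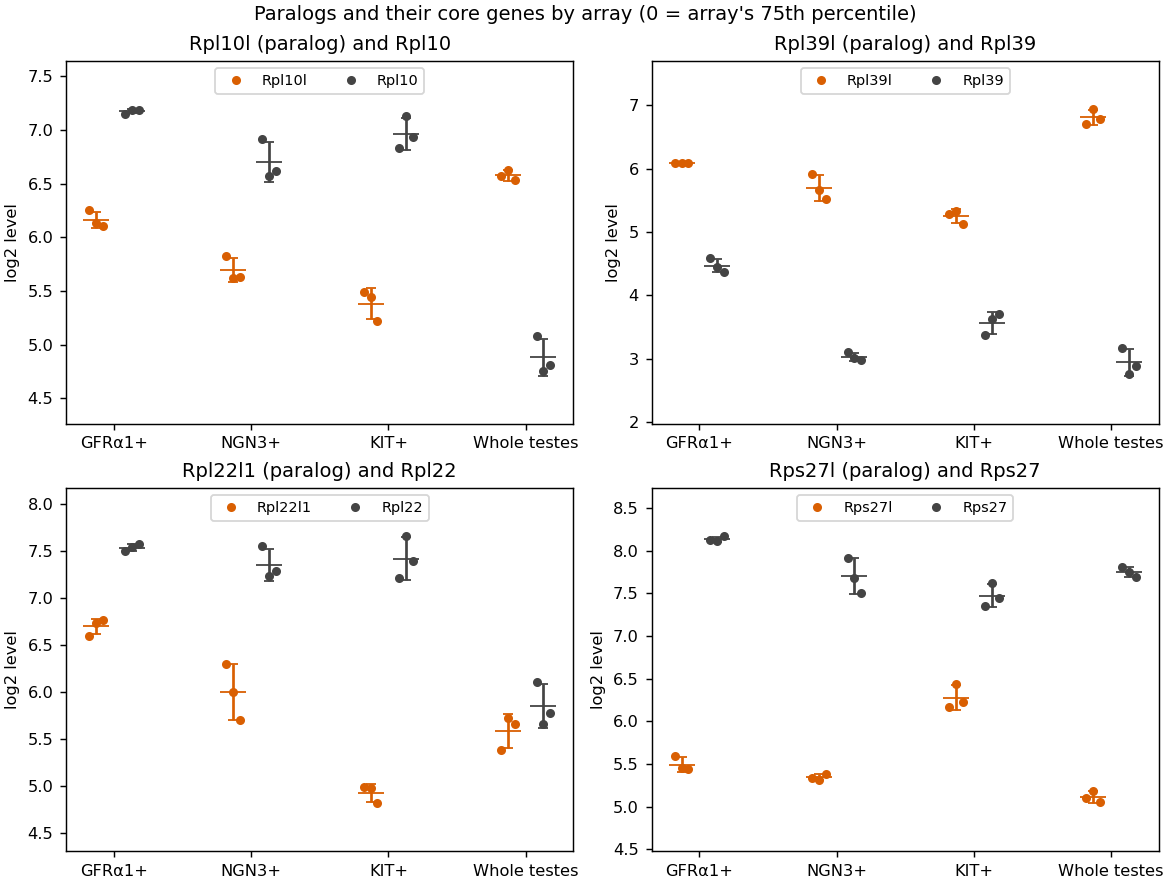
Log2 levels (0 is the array's 75th percentile) of 4 paralogs and of their core genes on each array of GFRα1+ cells, NGN3+ cells, KIT+ cells and whole testes; points are arrays, the long line is the mean and bars are 1 SD (n = 3). Rpl10l reads 5.22 to 5.49 in KIT+ cells and 6.53 to 6.63 in whole testes, while Rpl10 reads 6.83 to 7.13 in KIT+ cells and 4.76 to 5.08 in whole testes; levels of 2 genes in a panel come from different probes and are not to be set against each other.

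The 4 X-linked genes, Rpl10, Rpl36a, Rpl39 and Rps4x, were all called higher in GFRα1+ cells than in whole testes, with a median log2 ratio of 2.22 against 1.52 for the 72 autosomal core genes. Rps4x is counted here by its gene, although the probe that stands for it is placed on chromosome 3. In NGN3+ cells 3 were higher (median 1.69 against 1.06) and Rpl39, at a ratio of 0.09 ± 0.13 (SE), was not called. In KIT+ cells all 4 were higher (median 1.35 against 0.73), Rps4x by 1.31-fold (adjusted p = 0.033 by limma), a call that was lost without KIT+ replicate 2 (adjusted p = 0.13) or without whole testis replicate 1 or 3 (0.11 or 0.056). The Rps4x call was kept in 12 of 18 alternatives, and its log2 ratio went as low as 0.12. The Rpl39 call in KIT+ cells was lost with the slide as a block (log2 ratio 0.53, adjusted p = 0.068 by limma). Of all genes tested, 49.9%, 44.1% and 43.3% were called higher than in whole testes in GFRα1+, NGN3+ and KIT+ cells. The difference between the X-linked and autosomal genes was not tested. Between the sorted fractions they went different ways: in KIT+ against NGN3+ cells Rpl39 rose, Rps4x fell, and Rpl10 (0.26 ± 0.13, SE) and Rpl36a (-0.38 ± 0.14) were not called.

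The genes were also grouped by place in the ribosome. The stalk proteins Rplp0, Rplp1 and Rplp2, which bring elongation factors to the ribosome, were all called lower in NGN3+ than in GFRα1+ cells (log2 ratios between -0.42 and -0.39). Rplp0 read 9.01, 8.75 and 8.64 in NGN3+ cells, against 9.22, 9.23 and 9.16 in GFRα1+ cells, which did not overlap, although by under 0.2 at the nearest arrays. Under quantile normalization the log2 ratios of the 3 stalk genes were 0.019, 0.029 and 0.0096, and with the slide as a block, at ratios of -0.36, -0.42 and -0.39, none was called (adjusted p between 0.11 and 0.15), nor was any, at ratios between -0.43 and -0.32, without NGN3+ replicate 2 or 3 or GFRα1+ replicate 1 or 2 (adjusted p between 0.055 and 0.094). Rplp0 is also widely used as a reference gene, and its log2 ratio over whole testes was 0.63 in GFRα1+ cells, 0.23 in NGN3+ and 0.04 in KIT+ cells, of which the first was called (adjusted p = 0.00042), against 1.86 for Rplp2 in GFRα1+ cells.
Rpl5 and Rpl11, which form the 5S particle with 5S ribosomal RNA and can bind the p53 inhibitor Mdm2, were called lower in each sorted comparison, with medians of -0.50 in NGN3+ over GFRα1+, -0.66 in KIT+ over NGN3+ and -1.16 in KIT+ over GFRα1+ cells, against -0.41, -0.27 and -0.68 for all 83 genes. Rpl11 read 8.37, 8.34 and 8.41 in GFRα1+ cells, 8.25, 7.95 and 7.84 in NGN3+ cells and 7.38, 7.56 and 7.33 in KIT+ cells, with no overlap between fractions (1.94-fold lower in KIT+ than in GFRα1+ cells, adjusted p = 0.00019 by limma). Rps2 and Rps3, at the entry of the mRNA, had medians of 2.83, 2.39 and 2.22 in GFRα1+, NGN3+ and KIT+ cells over whole testes, against 1.53, 1.09 and 0.73 for all 83 genes. Of 12 genes around the exit tunnel, 6 were lower in NGN3+ than in GFRα1+ cells (36.4% of all genes tested were) and 11 in KIT+ than in GFRα1+ cells (39.5%), with medians of -0.40 and -0.69. Rps6, the phosphorylation target of S6 kinase, read 6.92, 7.26 and 7.08 in KIT+ cells, against 8.0, 7.98 and 7.99 in GFRα1+ cells, with no overlap, and fell 1.87-fold (adjusted p = 0.00042).
The 2 subunits were counted apart, and their difference was not tested. In NGN3+ against GFRα1+ cells 28 of 46 core genes of the large subunit and 22 of 30 of the small one were lower (medians of -0.41 for both), and in KIT+ against GFRα1+ cells 41 and 28 were lower, with medians of -0.68 and -0.67. In KIT+ against NGN3+ cells 12 and 3 were lower, with medians of -0.27 and -0.28. Of all genes tested, 36.4%, 39.5% and 17.0% were lower in these 3 comparisons, in the same order. Over whole testes the medians of the large and the small subunit were 1.48 and 1.75 in GFRα1+ cells, 1.03 and 1.27 in NGN3+ cells, and 0.70 and 0.85 in KIT+ cells.

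The counts over all probes, those that stand for the genes included, were as follows. Of the 171 probes, 167 were tested between NGN3+ and GFRα1+ cells, of which 111 were lower and 0 higher. Between KIT+ and GFRα1+ cells 145 of 167 were lower and 2 higher. Of all genes tested, with 1 probe each, 36.4% were lower and 20.0% higher in NGN3+ against GFRα1+ cells. In KIT+ against GFRα1+ cells these shares were 39.5% and 26.6%. No gene had probes called in both directions between sorted fractions. In KIT+ cells against whole testes 115 of 166 probes were higher and 17 lower, beside 43.3% and 41.6% of all genes tested. Against whole testes, Rpl27a and Rps27a had probes called both ways in each comparison, and Rpl17 and Rps24 in KIT+ cells. Ribosomal protein genes have many processed copies in the genome, and a probe can read several of them. For 12 probes the file gave no position or one on another chromosome than that of the RefSeq gene, among them those that stand for Rps4x, Rpl31, Rps27 and Rps29. A list of pseudogenes named for a ribosomal protein, added after the data were seen, moved like the genes: of 82 tested in NGN3+ against GFRα1+ cells 55 were lower and 0 higher (median -0.52), and of 82 in GFRα1+ cells against whole testes 71 were higher and 4 lower (median 1.45). Of all genes tested, 36.4% were lower and 20.0% higher in the first of these comparisons. In the second, 49.9% were higher and 37.5% lower.

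Genes that make or use ribosomes were counted beside them, and each count is to be read against the share of all genes tested. In GFRα1+ cells over whole testes 49.9% of all genes were higher and 37.5% lower, in NGN3+ over GFRα1+ cells 20.0% were higher and 36.4% lower, and in KIT+ over NGN3+ cells 17.5% were higher and 17.0% lower. Of 57 ribosome assembly factors, 53 were higher and 2 lower in GFRα1+ cells than in whole testes (median 2.44), with Wdr43 at 4.03, and in NGN3+ against GFRα1+ cells 31 were lower and 1 higher (median -0.34), with Utp14a, of the small subunit processome, at -1.06. Sbds, which readies the large subunit for joining, fell by 1.25 in KIT+ against NGN3+ cells. Of 14 genes for RNA polymerase I and its factors, which make ribosomal RNA, 11 were higher and 2 lower in GFRα1+ cells than in whole testes (median 2.32), with Polr1b at 4.53, and 8 were lower and 1 higher in NGN3+ than in GFRα1+ cells (median -0.48). Of 77 mitochondrial ribosomal proteins, 59 were higher and 12 lower in GFRα1+ cells than in whole testes (median 1.49) and 33 were lower in NGN3+ than in GFRα1+ cells (median -0.27), but in KIT+ against NGN3+ cells 23 were higher and 6 lower (median 0.12), with Mrps2 at 0.77. The cytosolic ribosomal protein genes had 3 higher and 17 lower in that comparison, and the difference between the lists was not tested.

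The same shares apply to the translation factors and regulators. In NGN3+ against GFRα1+ cells, 26 of 52 initiation factors were lower and 3 higher (median -0.32), 6 of 11 elongation and release factors were lower and 1 higher (median -0.40), with Eif5a2, a form of the factor eIF5A, at -1.27, and 12 of 16 partners of the new protein chain were lower and 0 higher (median -0.45). In KIT+ against NGN3+ cells, 7 initiation factors were lower and 9 higher, with Eif4b at -1.03, 3 elongation factors were lower, with Eef2 at -0.56, and 4 partners of the new chain were higher, with Srp9 of the signal recognition particle at 0.56. The initiation factor counts lie at or below the shares of all genes in that comparison. Of 18 genes of the mTORC1 pathway, 9 were lower and 2 higher in NGN3+ than in GFRα1+ cells, and 7 were lower and 2 higher in KIT+ than in NGN3+ cells. In the second comparison Ddit4 was at -3.1 and Sesn1 at -1.53, both inhibitors of mTORC1. Of the Myc family, Mycn rose by 4.07 in GFRα1+ cells over whole testes and by 0.39 in NGN3+ against GFRα1+ cells, and fell by 1.22 in KIT+ against NGN3+ cells. Myc fell by 1.69 in NGN3+ against GFRα1+ cells, and was well above background on 0 of 3 NGN3+ arrays. Mxd4, an antagonist of Myc, rose by 0.84 in NGN3+ against GFRα1+ cells and by 0.76 in KIT+ against NGN3+ cells. In that family 3 of 9 genes were lower and 2 higher in NGN3+ against GFRα1+ cells, and 4 of 8 lower and 2 higher in KIT+ against NGN3+ cells.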

How the data were processed

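RNA of 12 samples (4 groups of 3) was measured on Agilent 1-colour mouse arrays. The authors extracted spot values with Agilent Feature Extraction (10.7.3.1 in the submitters' processing notes, 10.7.1.1 and 10.7.3.1 in the file headers) and deposited the processed signal, a background-subtracted intensity on a linear scale, with flags per spot. By the headers, the arrays of slide 2 had version 10.7.1.1 and those of slides 1 and 3 had 10.7.3.1. The authors also deposited a table of log2 values, used here as an alternative. Their methods name GeneSpring and, per gene, a t-test corrected after Benjamini and Hochberg. RNA was from 10000 to 20000 sorted cells, or 500000 cells for whole testes, with 25 ng labelled, and samples came from different animals.

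Here, the processed signal was put on the log2 scale, and the 75th percentile of the array (318 to 675 on the intensity scale) was taken off, without control spots and outlier spots (103 to 161 per array; no spot was saturated). The brightest probe by mean stood for a gene. To be tested, a gene had to be well above background on 3 of 3 arrays in either group. Tests used limma 3.58.1 in R 4.3.3, on the 9 sorted arrays together or on all 12 for whole testes. The number of arrays limits the precision: 3 arrays against 3 cannot go below an exact permutation p of 0.1, so no such test is given. The procedure was tested on simulated data. Sequences are from RefSeq, GRCm38.p6; probe positions, in mm9, are from the files.

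The genes, gene lists and tests were chosen with earlier results of these data known. Named with values are the paralogs and their core genes, X-linked genes, stalk genes, the 4 largest called rises and falls in each comparison and, of other lists, up to 3 genes with the smallest adjusted p. Genes named for their role in the ribosome, Rps27a, Rps6, Rpl11, Eef2, Myc, Mycn in NGN3+ against GFRα1+ cells and the windows shown were added after values were seen. Alternatives covered the scaling, background, filter, probe, outlier spots, samples in the fit, slide, replicate number, test and each array left out.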

Additional observations from a re-analysis of the deposited data

How the results depend on the processing

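The number of the 83 genes called depended on the scaling and, by comparison, on the slide, the test and single arrays. In NGN3+ against GFRα1+ cells, where 55 were lower and 0 higher, quantile normalization gave 8 lower and 6 higher, the percentile over bright probes 22 lower and the slide as a block 5. The methods' t-test gave 25, and scaling to spiked-in RNA, added after the data were seen, 0 lower and 82 higher. Of all genes tested, 31.5%, 24.95%, 23.6%, 27.98% and 0.58% were lower under these settings, in the same order. The percentile over bright probes also moved the split of all genes, which was 4768 higher and 8657 lower, to 5932 higher and 5938 lower. In KIT+ against NGN3+ cells, with 17 lower and 3 higher, quantile normalization gave 31 and 6, the percentile over bright probes 40 lower, normexp 28, no filter 8, the t-test 4 and the spiked-in RNA 2 lower and 1 higher. Of all genes tested, 19.41%, 20.31%, 17.76%, 10.54%, 14.17% and 8.06% were lower under these settings, in the same order. In KIT+ against GFRα1+ cells, with 73 lower and 2 higher, quantile normalization gave 35 and 10, the spiked-in RNA 0 and 80, and 1 was higher with the slide as a block and by the t-test. Of all genes tested, 37.39% were lower and 28.75% higher under quantile normalization, and 2.35% and 90.12% with the spiked-in RNA. Of the genes lower than whole testes, 4 in GFRα1+ cells became 2 with no filter, with the replicate block and with the spiked-in RNA, and 1 with the slide as a block or in slide 1 alone; 4 in NGN3+ cells became 7 with the percentile over bright probes, 2 with the slide as a block and 0 with the spiked-in RNA; and 7 in KIT+ cells became 3 with the slide as a block and 0 with the spiked-in RNA. The number higher than whole testes ran from 64 to 79, 58 to 82 and 47 to 81 in GFRα1+, NGN3+ and KIT+ cells. Of all genes tested, 37.82% to 58.39%, 33.1% to 65.74% and 31.11% to 66.08% were higher than whole testes under these settings. The shares lower were 26.59% to 43.69%, 19.11% to 43.78% and 19.18% to 46.62%, in the same order of cells. The causes were not tested.

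With any 1 array left out, the number lower ran from 20 to 70 and higher from 0 to 0 in NGN3+ against GFRα1+ cells, lower from 5 to 24 and higher from 2 to 4 in KIT+ against NGN3+ cells, and lower from 66 to 74 and higher from 2 to 2 in KIT+ against GFRα1+ cells. Of all genes tested, 25.66% to 36.24%, 12.93% to 16.42% and 34.18% to 38.9% were lower there, in the same order. The shares higher were 17.24% to 22.24%, 11.64% to 15.44% and 23.91% to 28.08%. Against whole testes the number lower ran from 2 to 4, 4 to 5 and 6 to 8 and the number higher from 78 to 78, 63 to 72 and 56 to 60 in GFRα1+, NGN3+ and KIT+ cells. GFRα1+ replicate 1 or 2 or whole testis replicate 2 or 3, left out, gave the 2. Of all genes tested, 36.43% to 37.51%, 37.38% to 39.33% and 39.8% to 41.33% were lower than whole testes there. The shares higher were 48.71% to 50.05%, 41.93% to 43.13% and 41.34% to 42.58%, in the same order of cells.

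With the spiked-in RNA most of the 83 genes turned in NGN3+ and in KIT+ against GFRα1+ cells, by the counts above. Of all genes tested, 95.32% and 90.12% were higher there. The median of the 83 genes relative to all genes stayed at -0.22 and -0.52. The median of the 83 genes in NGN3+ against GFRα1+ cells was 0.0087 (0.13 above that of all genes) under quantile normalization and 1.42 with the spiked-in RNA, and in KIT+ against GFRα1+ cells 1.26 with the spiked-in RNA. Rplp0, Rplp1 and Rplp2 were at 0.019, 0.029 and 0.0096 in NGN3+ against GFRα1+ cells and Rplp1 at 0.022 in KIT+ against GFRα1+ cells under quantile normalization, and Rps27l at -0.024 in GFRα1+ cells over whole testes with the percentile over bright probes. Single genes were not tested with the spiked-in RNA.

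The replicate numbers do not pair the samples: same-numbered deviations correlated at -0.02, -0.19 and 0.07 between NGN3+ and GFRα1+ cells and at -0.36, -0.55 and 0.23 between KIT+ and NGN3+ cells, and at most 2 of 3 samples correlated best with their own number. With the replicate block 43 genes were lower in NGN3+ than in GFRα1+ cells (32.97% of all genes tested) and 12 in KIT+ than in NGN3+ cells (15.06%).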
